A study of Mus musculus with 2 samples.

Results

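Small leucine-rich proteoglycans (SLRPs) were counted spot by spot in 2 longitudinal sections of healing mouse femurs, 1 from a Control mouse and 1 from a Loaded mouse. The 7 members described here are Bgn, Dcn, Aspn, Lum, Prelp, Omd and Ogn. They were taken by gene symbol from the 19465 genes of the 2 count matrices, and all 7 were found in both. Both mice were female and of the BCR line (bone cell reporter), in which CRISPR-Cas9 placed eGFP at Ibsp and mCherry at Acp5, so the Control animal carried the same alleles as the Loaded one. At 12 weeks of age each received a mid-diaphyseal femoral osteotomy held by an external fixator, and each was killed at 17 weeks of age. The Loaded femur was compressed cyclically at 10 Hz for 3000 cycles, 3 times a week from week 3 to week 5 after surgery, with forces between 8 and 16 N. The Control femur went through the same handling at 0 N, and tissue was taken 10 h after the last session. There was 1 section per condition, so no difference between Control and Loaded could be tested, and every interval given here covers counting error alone, not differences between animals.

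SLRPs are secreted proteins built around repeats rich in leucine, and most carry chondroitin, dermatan or keratan sulfate chains. They bind fibrillar collagen, where they set fibril diameter and spacing, and several also bind TGF-beta family ligands. In bone and the tissue around it they are made by osteoblasts, periosteal and fibrous cells, tendon cells and chondrocytes. Biglycan (Bgn), decorin (Dcn) and asporin (Aspn) form class I, and biglycan and decorin carry chondroitin or dermatan sulfate while asporin carries no such chain. Lumican (Lum), PRELP (Prelp) and osteomodulin (Omd, also called osteoadherin) belong to class II, and osteoglycin (Ogn) belongs to class III.

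The 7 genes sit at 4 places in the mouse genome (positions from GENCODE M21 on GRCm38). Aspn at chr13:49544443-49567565, Omd at chr13:49582462-49592822 and Ogn at chr13:49608046-49624501 lie next to each other on the plus strand, behind the SLRP-like gene Ecm2 at chr13:49504810-49532789. Dcn at chr10:97479609-97518143 and Lum at chr10:97565128-97572703 are neighbors on the plus strand, followed by Kera and Epyc. Prelp at chr1:133910304-133921414 lies on the minus strand beside Optc and Fmod. Bgn stands alone among the members, at chrX:73483602-73495933 on the plus strand.

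The 250 bases upstream of the transcription start are shown for Bgn, Aspn and Prelp, the members whose values separate the regions or the sections most. They were read from the RefSeq promoter table (GRCm38.p6), which held 5 of the 7 members, and are written 5′ to 3′ on the strand of the gene. The windows are chrX:73483351-73483600 (plus strand), chr13:49544193-49544442 (plus strand) and chr1:133921402-133921651 (minus strand). Capitals mark matches on either strand to any of 6 short strings. The core promoter strings were the TATA box, spelled TATAAA, and the GC box bound by SP1, spelled GGGCGG. Those of signaling factors were the SMAD box, spelled CAGAC, and the site of the AP-1 factors, spelled TGAGTCA. The last pair were the RUNX core, spelled TGTGGT, and the TEAD core, spelled GGAATG. The AP-1, RUNX and TEAD strings had no match in the windows shown, and occurred in 4.46%, 14.0% and 12.6% of all windows.
Bgn: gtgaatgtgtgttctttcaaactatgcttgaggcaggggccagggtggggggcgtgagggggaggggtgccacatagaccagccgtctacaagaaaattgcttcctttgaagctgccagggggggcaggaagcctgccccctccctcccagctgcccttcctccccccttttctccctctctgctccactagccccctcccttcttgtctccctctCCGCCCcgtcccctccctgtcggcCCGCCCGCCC
Aspn: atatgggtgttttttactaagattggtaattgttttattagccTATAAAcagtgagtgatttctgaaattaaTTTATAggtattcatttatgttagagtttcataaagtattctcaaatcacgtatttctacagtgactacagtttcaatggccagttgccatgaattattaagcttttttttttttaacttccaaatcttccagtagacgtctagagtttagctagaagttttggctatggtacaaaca
Prelp: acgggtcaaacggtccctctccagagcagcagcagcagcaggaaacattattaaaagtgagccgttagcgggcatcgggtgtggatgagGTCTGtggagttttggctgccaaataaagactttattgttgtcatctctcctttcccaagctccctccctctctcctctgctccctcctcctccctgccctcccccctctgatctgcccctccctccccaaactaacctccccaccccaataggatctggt
The Bgn window was 64.4% G or C and its capitals are GGGCGG read on the opposite strand, with starts 34, 10 and 6 bases upstream, the last pair overlapping. GGGCGG occurred in 32.7% of all 32851 promoter windows of this length. The Aspn window was 30.0% G or C, against a median of 52.4% over all windows, and held TATAAA once on each strand, a string found in 12.4% of windows. The Prelp window was 55.6% G or C and held a single CAGAC on the opposite strand, a string found in 42.2% of windows. A match is a match of letters only, and no measurement of binding was made.

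After the spot filter, the Control section held 1898 spots and 8984212 UMIs and the Loaded section 1431 spots and 4908807 UMIs. UMIs (unique molecular identifiers) count captured probe molecules. Spots are 55 µm wide and 100 µm apart, so a spot is a small region of tissue and not a cell. A lower count can mean fewer cells that make the transcript or less RNA per cell, and these cannot be told apart. Bone spots were those on the authors' published list of bone barcodes (131 in Control, 146 in Loaded). That list covers bone at the fracture site between the inner pins of the fixator. Bone outside that stretch was therefore not counted as bone here, and distances from bone are distances from the listed spots. The osteocyte genes Sost and Dmp1 had 378 and 407 UMIs in the remaining spots of Control, against 19 and 28 in its listed bone spots. The rim was every other spot within 250 µm of a bone spot (253 and 264 spots, none farther than 200 µm), and the remaining spots numbered 1514 and 1021. Skeletal muscle transcripts (22 genes) made up 16.7% of bone UMIs in Control and 8.72% in Loaded, and 31.9% and 21% of the UMIs of the remaining spots. The 2 sections shared 557 spot barcodes, which name positions of the slide grid rather than cells.

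The bone label was checked against 8 osteoblast and 5 osteocyte markers. Osteoblast markers made up 2.10% of bone UMIs and 0.707% of remaining UMIs in Control, and 6.80% and 0.793% in Loaded. Osteocyte markers were scarce in the Control bone spots, with 52 UMIs and Fgf23 at 0, and made up a smaller share there (0.00933%) than in the remaining spots (0.0115%). In Loaded they reached 327 UMIs, 0.0799% of bone UMIs. Of the 11700 osteoblast-list UMIs of Control bone, 4152 were Col1a1 and 6526 Col1a2, genes that fibrous and tendon cells also use. Ibsp (1.64 against 0.374) and Spp1 (3.00 against 0.929) had higher normalized counts in Control bone than in the remaining spots, while Bglap, the osteocalcin gene, was at 0.726 against 0.883, Alpl at 0.138 against 0.167 and Phospho1 at 0.311 against 0.884. In Loaded bone Bglap was 8.35 against 0.761. The Control bone spots are therefore called bone after the authors' list, since only some of the osteoblast markers, and not the osteocyte list, were higher there than in the remaining spots.

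In the Control section, transcripts of 6 of the 7 SLRPs were more than 2-fold higher in bone spots than in the remaining tissue, against 12.7% of the 14033 genes tested. Without 1 stretch of the Control shaft, called block A2, 3 of the 7 passed, against 14.1% of genes. Against only the remaining spots with a muscle share below 10%, 2 of the 7 passed, where 8.8% of genes did. With all spots kept, the median log2 ratio was 1.36 over the members and -0.06 over all genes. In the Loaded section only Bgn passed 2-fold, against 9.84% of 13002 genes, and the median was 0.25 over the members and 0.09 over all genes. Levels are normalized counts, the UMIs of a region divided by the sum of its spots' scran size factors, with exact Poisson 95% intervals. Each gene was counted with its own probes, so levels are compared between regions and sections but not between genes.

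**Figure D1:**
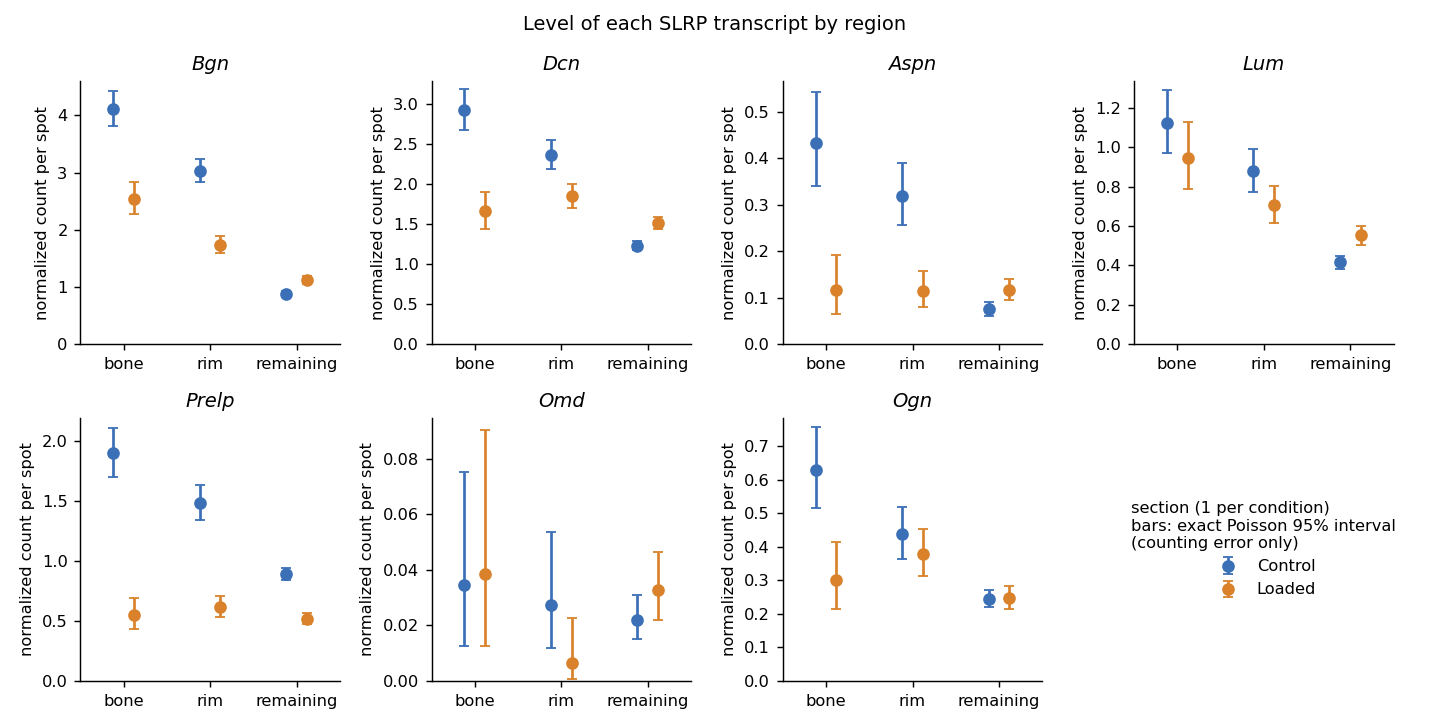
Normalized count per spot of each SLRP (vertical axis, 1 panel per gene, each with its own scale) in bone, rim and remaining spots of the Control and Loaded sections. Bars are exact Poisson 95% intervals. In Control, 6 genes step down from bone to rim to remaining, while in Loaded the step is clear for Bgn (2.54, 1.73, 1.12) and small or missing for Dcn, Aspn and Prelp.

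Bgn, a class I SLRP abundant in bone matrix, was counted 713 times in Control bone, 885 times in the rim and 1321 times in the remaining spots. These gave normalized counts of 4.11 (3.81 to 4.42), 3.02 (2.83 to 3.23) and 0.883 (0.836 to 0.932). In Loaded the levels were 2.54 (2.27 to 2.83) from 328 UMIs, 1.73 (1.59 to 1.89) from 550 UMIs and 1.12 (1.06 to 1.20) from 1036 UMIs. Both sections had the same order, with bone highest and the remaining spots lowest and no overlap of intervals. Bone stood 4.65-fold above the remaining tissue in Control (log2 2.22, 2.08 to 2.35) and 2.26-fold in Loaded (log2 1.18, 0.99 to 1.36).

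Dcn, the class I member best known from tendon, skin and fibrous tissue, had normalized counts of 2.92 (2.67 to 3.18) in Control bone, 2.36 (2.19 to 2.55) in the rim and 1.23 (1.17 to 1.29) in the remaining spots. Its Loaded levels were 1.66 (1.44 to 1.90), 1.85 (1.70 to 2.0) and 1.51 (1.43 to 1.59). The Control levels formed a gradient, and in Loaded the intervals of bone and of both other regions overlapped. The bone to remaining ratio was 2.37-fold in Control and 1.10-fold in Loaded, the latter with a log2 interval of -0.08 to 0.35, and with TMM factors (the trimmed mean of M-values, an alternative scaling) its log2 value was -0.01.

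Aspn, which competes with decorin for collagen and binds calcium, had the largest bone to remaining ratio of the 7 genes in Control. Its level was 0.432 (0.340 to 0.542) from 75 UMIs in bone, 0.318 (0.256 to 0.389) from 93 UMIs in the rim and 0.0749 (0.0617 to 0.0901) from 112 UMIs in the remaining spots, a 5.77-fold step from remaining to bone (log2 2.53, 2.09 to 2.96). In Loaded the levels were 0.116 (0.0650 to 0.192) from 15 UMIs, 0.114 (0.0795 to 0.157) from 36 UMIs and 0.116 (0.0952 to 0.140) from 107 UMIs. No step was detectable there at this depth, with a log2 ratio of 0.00 (-0.89 to 0.79) that took either sign with the scaling used.

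Lum, a class II protein of collagen fibrils that can carry keratan sulfate, was highest in bone and lowest in the remaining spots of both sections. The Control levels were 1.12 (0.971 to 1.29), 0.878 (0.774 to 0.992) and 0.415 (0.383 to 0.449) in bone, rim and remaining spots, and the Loaded levels were 0.945 (0.785 to 1.13), 0.706 (0.617 to 0.805) and 0.552 (0.505 to 0.602). The bone to remaining ratio was 2.71-fold in Control and 1.71-fold in Loaded, with the log2 interval of the latter (0.48 to 1.06) above 0.

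Prelp, a class II protein that links collagen to basement membrane heparan sulfate, had levels of 1.90 (1.70 to 2.11), 1.48 (1.34 to 1.63) and 0.893 (0.845 to 0.942) in Control, from 329, 433 and 1335 UMIs. In Loaded the levels were 0.550 (0.430 to 0.694), 0.615 (0.532 to 0.708) and 0.520 (0.475 to 0.569), from 71, 195 and 479 UMIs. Bone stood 2.12-fold above the remaining spots in Control (log2 1.09), a ratio that was -0.08 on the log2 scale without Control block A2, and in Loaded the log2 ratio was 0.08 (-0.30 to 0.44), with a value of -0.07 under TMM factors.

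Ogn, the class III member, had levels of 0.628 (0.516 to 0.758), 0.437 (0.365 to 0.520) and 0.245 (0.221 to 0.272) in Control. Its Loaded levels were 0.302 (0.215 to 0.413), 0.378 (0.314 to 0.453) and 0.248 (0.216 to 0.282). The bone to remaining ratio was 2.56-fold in Control and 1.22-fold in Loaded (log2 0.29, -0.24 to 0.78). Omd, a mineral-binding class II protein of osteoblasts, was close to the detection limit, with 6, 8 and 33 UMIs in the Control regions and 5, 2 and 30 in the Loaded regions, and its bone to remaining log2 intervals spanned -0.90 to 1.92 and -1.47 to 1.63. No order of regions was detectable for Omd at this depth, and any 2-fold call that includes Omd rests on few UMIs.

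The rim shared much of the Control pattern. Rim spots were more than 2-fold above the remaining spots for Bgn (log2 1.78, 1.65 to 1.90), Lum (1.08, 0.87 to 1.29) and Aspn (2.08, 1.67 to 2.49), 3 of 7 members against 9.57% of 14326 genes. Against only the remaining spots with a muscle share below 10%, 1 member was higher and 1 lower, where 9.77% and 19.6% of genes were. The higher one was Aspn, and the lower one was Omd, on 8 and 20 UMIs. In Loaded no member was 2-fold higher in the rim, against 4.63% of 13513 genes, and Bgn had the largest log2 ratio (0.62, 0.47 to 0.78). Omd was the only member past 2-fold lower there, against 6.02% of genes, on 2 UMIs. Directly between bone and rim, none of the 7 members passed 2-fold in Control, against 2.59% of 10967 genes higher and 5.78% lower. In Loaded none of the 6 with enough UMIs did, against 5.34% of 10957 genes higher and 5.41% lower.

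**Figure D2:**
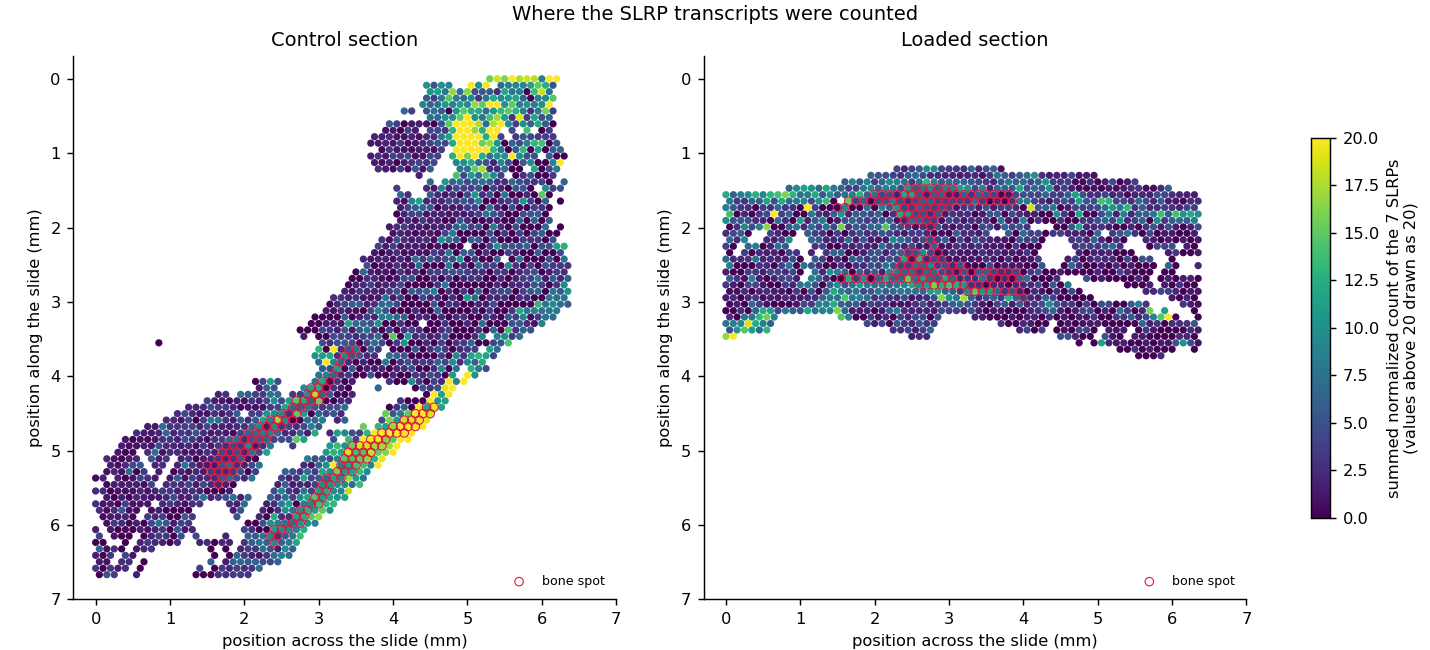
Position of every spot on the slide (millimeters on both axes), colored by the summed normalized count of the 7 SLRPs, with values above 20 drawn as 20. Red circles mark bone spots. In Control the high spots form a streak along part of 1 side of the shaft and a patch at the edge of the section far from bone, while the Loaded section is more even.

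Distance from bone gave the same account at finer grain. Control Bgn was 4.11 on bone, 3.49 in the spots up to 150 µm away, 2.47 at 150 to 250 µm, 1.03 at 250 to 500 µm, 0.887 at 500 to 1000 µm and 0.833 beyond 1000 µm. Loaded Bgn took a shallower course over the same bins, from 2.54 through 2.04, 1.43, 1.25 and 1.05 to 1.08. Control Aspn went from 0.432 on bone and 0.328 at 150 to 250 µm to 0.0899 at 250 to 500 µm, whereas Loaded Aspn stayed between 0.0683 and 0.131 at every distance. The steep part of the Control decline for both genes lay between the rim and the spots just outside it.

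Prelp differed from the other members far from bone. In Control it went from 1.90 on bone to 0.450 at 250 to 500 µm and 0.369 at 500 to 1000 µm, and was 1.31 beyond 1000 µm. Loaded Prelp ran between 0.489 and 0.641 at every distance and was 0.505 beyond 1000 µm. The Control counts beyond 1000 µm were higher in spots rich in tendon transcripts (the highest 10% of the section for Tnmd, Scx, Mkx, Thbs4, Comp and Egr1 summed). In the 143 such spots Prelp was 5.21 (4.75 to 5.71), and in the other 833 spots of that distance it was 0.818 (0.754 to 0.887). Dcn was 3.79 and 0.949 in the same spots, and Bgn 2.24 and 0.657. The Prelp level of the other 833 spots was itself above that at 500 to 1000 µm (0.369, 0.313 to 0.432). Beyond 1000 µm in Control, Prelp was 2.24 in chondrocyte-rich and 1.78 in osteoblast-rich spots, classes that can share spots with the tendon-rich one.

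**Figure D3:**
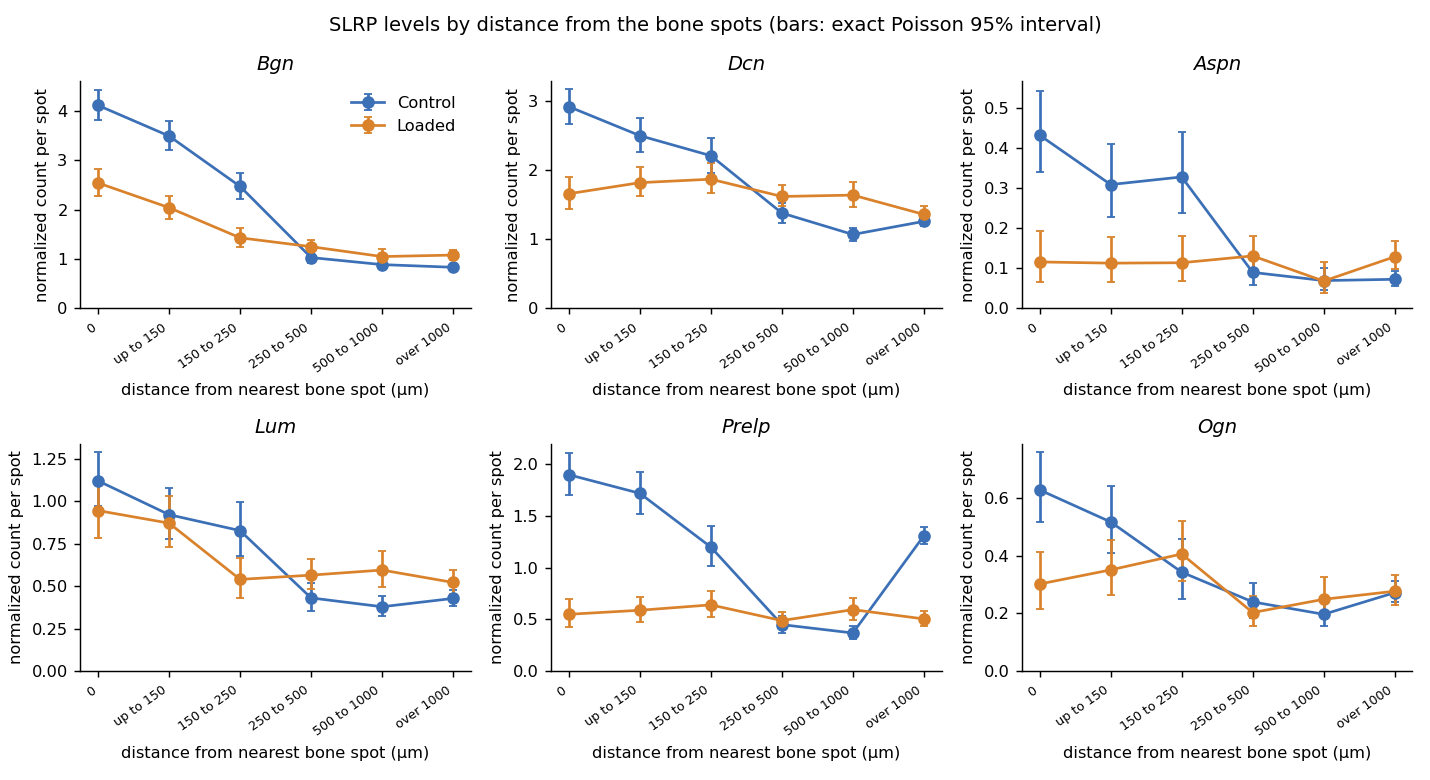
Normalized count per spot (vertical axis) of 6 SLRPs in bins of distance from the nearest bone spot (horizontal axis, µm), with exact Poisson 95% intervals, for the Control and Loaded sections. Bgn goes from 4.11 to 0.833 in Control, with a smaller change, 2.54 to 1.08, in Loaded, and Prelp is 1.31 beyond 1000 µm in Control.

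Bgn, Dcn and Prelp were higher in the rim outside the shaft than in the rim facing the cavity, in both sections. Control Bgn was 3.36 (3.13 to 3.61) in 131 outer rim spots and 1.86 (1.55 to 2.22) in 122 cavity spots, and Loaded Bgn was 2.01 (1.82 to 2.21) and 1.20 (1.00 to 1.43). Dcn was 2.59 and 1.59 in Control and 2.27 and 1.02 in Loaded. Prelp was 1.65 and 0.887 in Control and 0.782 and 0.289 in Loaded. Lum and Ogn had higher values on the outer side, with intervals that overlapped between the sides in Control. Aspn had 0.318 and 0.316 in Control and 0.124 and 0.0932 in Loaded, with overlapping intervals, and Omd, on few UMIs, had lower values on the outer side (0.0177 against 0.0601 and 0.00477 against 0.00932). The muscle share also differed between the sides, at 22.1% of UMIs in the outer rim and 10.8% in the cavity rim of Control and 16.4% and 5.24% in Loaded, and their part in the result was not tested.

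Between the sections, bone spots carried fewer SLRP transcripts in Loaded than in Control. Ogn, Aspn and Prelp were more than 2-fold lower in Loaded bone, 3 of 7 members against 8.11% of 10003 genes tested, and no member was 2-fold higher, against 13.2% of genes. The median log2 ratio of Loaded over Control was -0.81 over the members and 0.12 over all genes. The intervals of Bgn, Dcn, Ogn, Aspn and Prelp lay below 0, and each of these 5 was lower in Loaded under every scaling tried. The block values given next show that 1 stretch of the Control shaft decided how many members passed 2-fold.

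Over all bone spots, the 3 class I genes were lower in Loaded. Aspn went from 0.432 in Control to 0.116 in Loaded, 3.72-fold lower (log2 -1.89, -2.80 to -1.08). Dcn went from 2.92 to 1.66 (log2 -0.81, -1.05 to -0.58). Bgn went from 4.11 to 2.54 (log2 -0.69, -0.89 to -0.50). The intervals of the 2 sections did not overlap for any of these genes, although without Control block A2 the Bgn ratio was 0.17.

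In class II, Prelp went from 1.90 to 0.550 in bone, 3.45-fold lower (log2 -1.79, -2.18 to -1.41). Lum went from 1.12 to 0.945, a log2 ratio of -0.25 whose interval (-0.59 to 0.08) included 0. Omd, with 5 and 6 UMIs, had an interval from -1.89 to 2.14. Class III Ogn went from 0.628 to 0.302 (log2 -1.06, -1.62 to -0.52). Prelp and Lum, both class II, thus had unlike ratios in the same spots.

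To show the spread inside the bone region, each section's bone spots were divided into 4 blocks, by side of the shaft (A or B) and by position along it (1 or 2). Blocks are not replicates, and the names do not match positions between the sections. The Control blocks differed widely. Block A2, with 39 spots and 182245 UMIs, had a Bgn level of 7.13 (6.50 to 7.81), and the other 3 Control blocks had 3.20, 1.43 and 3.17. The 4 Loaded blocks lay between 2.11 and 3.00 for Bgn. The Loaded blocks thus fell inside the Control range, and the highest Control block stood alone.

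Block A2 was also highest for Lum (1.99, other Control blocks 0.353 to 0.940), for Aspn and for Prelp. Prelp was 3.62 (3.17 to 4.11) in A2 and 1.32, 0.494 and 1.01 in Control blocks A1, B1 and B2, and between 0.502 and 0.581 in the Loaded blocks. Aspn was 0.867 (0.657 to 1.12) in A2, 0.242, 0.124 and 0.144 in the other Control blocks, and between 0.0717 and 0.164 in Loaded. Dcn was the exception, with 4.22 (3.58 to 4.93) in A1 and 3.48 (3.05 to 3.96) in A2. For all 7 members the ranges of Control and Loaded blocks overlapped.

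**Figure D4:**
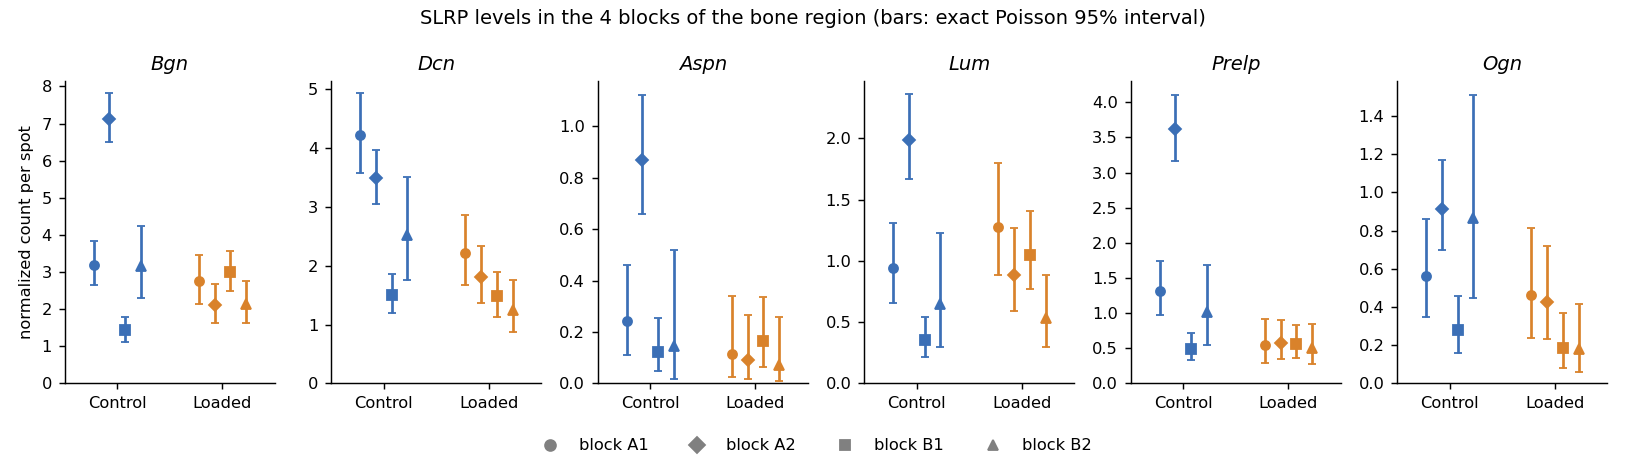
Normalized count per spot of 6 SLRPs in the 4 blocks of the bone region (marker shape) of the Control and Loaded sections, with exact Poisson 95% intervals. Control block A2 (diamond) lies above the other blocks for Bgn, Lum, Aspn and Prelp, and for Prelp the Loaded blocks lie between 0.502 and 0.581.

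Without block A2 the number of members more than 2-fold lower in Loaded bone went from 3 to 0, while 8.55% of genes passed in that direction. The log2 ratios were then 0.17 for Bgn, 0.67 for Lum, -0.59 for Ogn, -0.52 for Aspn and -0.62 for Prelp, while Dcn stayed between -1.12 and -0.63 whichever block was left out. Leaving out Control block B1, where muscle made up 29.7% of UMIs, raised the number to 5, against 8.17% of genes. In the comparison of bone with the remaining spots of Control, leaving out A2 took the number of members past 2-fold from 6 to 3 and the Prelp log2 ratio from 1.09 to -0.08.

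Several marker lists moved with block A2. Its tendon share, over 6 genes, was 0.664% of UMIs, against 0.0571% to 0.271% in the other Control blocks and 0.102% to 0.157% in the Loaded blocks. Its muscle share, 5.98%, was the lowest of the Control blocks, and its osteoblast share, 4.37%, was the highest of them, with Loaded blocks between 4.36% and 9.86%. Its osteoclast share, 0.772%, lay above the other Control blocks (0.11% to 0.275%) and the Loaded blocks (0.25% to 0.589%). All 6 tendon genes were counted in the bone spots of both sections, led by Thbs4 (927 UMIs in Control, 247 in Loaded) and Comp (671 and 222), while Tnmd (19 and 9) and Scx (18 and 25) were low. Over the whole bone region the tendon share was 0.303% in Control and 0.131% in Loaded, the fibroblast share 0.214% and 0.127%, and the Schwann cell share 0.0644% and 0.0218%. The granulocyte share went the other way, from 0.111% in Control to 0.443% in Loaded bone. The part of the osteoclast, fibroblast, Schwann cell and granulocyte lists in the SLRP difference between the sections was not tested. Leaving out the 10% of spots highest for the tendon list in each section removed 19 Control and 13 Loaded bone spots. After that, 2 members remained past 2-fold lower, against 8.43% of 9604 genes. Their log2 ratios were then -1.17 for Aspn and -1.14 for Prelp, with Dcn at -0.79, Ogn at -0.79, Bgn at -0.29 and Lum at 0.12.

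The comparison was repeated in the bone spots with a muscle share below 5%. In the 14 such spots of Control, Bgn was 8.14 (7.11 to 9.27), Prelp 4.56 (3.80 to 5.43) and Aspn 0.904 (0.585 to 1.33). In the 23 such spots of Loaded the same genes were at 2.46 (1.95 to 3.06), 0.553 (0.328 to 0.874) and 0.123 (0.0335 to 0.315). The difference between sections was larger in these spots than over all bone spots, with log2 ratios of -1.73 for Bgn, -3.04 for Prelp and -2.88 for Aspn. More than 2-fold lower were 5 members, where 13.9% of 4135 genes were, and Omd, on 2 and 0 UMIs, had too few to be called. Of the Control blocks, A2 had the lowest muscle share (5.98%) and the levels nearest to these (Bgn 7.13, Prelp 3.62, Aspn 0.867). How many of the 14 spots lay in A2 is not given here, so these ratios cannot be read as separate from the A2 result.

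Rim values differed with the nearest block too. The 65 Control rim spots nearest to A2 had a Bgn level of 5.30 (4.83 to 5.81), a Prelp level of 3.22 (2.85 to 3.63), an Aspn level of 0.642 (0.484 to 0.836) and a tendon share of 0.652%. The 64 nearest to B1 had 0.851 (0.674 to 1.06), 0.388 (0.272 to 0.537) and 0.0754 (0.0303 to 0.155), with a tendon share of 0.0412%. For Dcn the rim order was not that of the blocks, with 3.35 nearest to A2 and 3.15 nearest to A1 and overlapping intervals.

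Over the whole rim, 3 of 7 members were more than 2-fold lower in Loaded, against 6.58% of 11704 genes. Aspn went from 0.318 to 0.114 (log2 -1.48, -2.08 to -0.92) and Prelp from 1.48 to 0.615 (log2 -1.27, -1.52 to -1.02). The other was Omd, on 8 and 2 UMIs with an interval of -5.39 to 0.21 that included 0. Bgn had a log2 ratio of -0.80 (-0.96 to -0.65), Dcn -0.36, Lum -0.31 and Ogn -0.21, the last with an interval that included 0. The median was -0.80 over the members and 0.00 over all genes. Without the 65 Control rim spots nearest to A2, which left 188, no member was 2-fold lower, against 7.16% of 11349 genes. The log2 ratios were then -0.69 (-1.39 to 0.00) for Aspn, -0.30 (-0.61 to 0.01) for Prelp, -0.26 (-0.45 to -0.08) for Bgn, -0.08 for Dcn, 0.24 for Lum and 0.51 (0.04 to 1.00) for Ogn. The lower rim values of Loaded thus rested largely on the rim beside block A2. Rim over remaining in Control then had Bgn (1.24) and Aspn (1.29) past 2-fold, 2 members against 8.75% of genes.

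In the remaining spots the direction was different. No member passed 2-fold, against 6.78% of 15485 genes higher and 5.6% lower, and the median log2 ratio was 0.35 over the members and 0.04 over all genes. Bgn was higher in Loaded (1.12 against 0.883, log2 0.35, 0.23 to 0.47), as were Dcn (log2 0.29, 0.19 to 0.39), Lum (0.41, 0.24 to 0.58) and Aspn (0.63, 0.24 to 1.03). Prelp was lower (log2 -0.78, -0.93 to -0.63), and it was the only member lower in all 3 regions with every interval below 0. That difference lay beyond 1000 µm from bone (1.31 in Control, 0.505 in Loaded). At 250 to 500 µm Prelp was 0.450 in Control and 0.489 in Loaded, and at 500 to 1000 µm 0.369 and 0.595. The remaining spots reached 4530 µm from bone in Control and 2506 µm in Loaded. Col2a1, a cartilage gene, had 2374 and 65 UMIs in them, and the part of such unlike tissue was not tested. Muscle-rich spots, with at least 10% of UMIs from muscle genes, made up 62.0% of the remaining spots in Control and 60.4% in Loaded. Among the spots that were not muscle-rich, the log2 ratios were -0.42 for Bgn, -0.08 for Dcn, -0.06 for Lum and -1.72 for Prelp. With every spot given equal weight the Bgn ratio was -0.13, so the direction of Bgn in the remaining tissue depended on how the spots were weighed.

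The balance of higher and lower calls over all genes also depended on the scaling. In bone, 61.9% of the genes past 2-fold between the sections were higher in Loaded with scran factors, 46.1% with TMM factors and 49.1% with library totals that left out muscle genes. In the rim the share was 53.0% with scran and 68.5% with library totals, and in the remaining spots 54.8% with scran, 88.5% with library totals and 74.2% without muscle genes. For bone over remaining, the share of higher calls was 52.4% in Control with scran, 91.3% with library totals and 78.7% without muscle genes. In Loaded it was 50.2%, 75.1% with library totals and 34.5% with TMM. For rim over remaining it was 56.2% in Control (91.1%, 77.0% and 43.8% with library totals, without muscle genes and with TMM) and 43.5% in Loaded (73.3% and 57.5% with library totals and without muscle genes). For bone over rim it was 30.9% in Control (50.3% with library totals and 43.4% without muscle genes) and 49.7% in Loaded (38.8% with TMM).

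Counting spots rather than molecules gave the same order of sections in bone for Bgn, Dcn, Prelp and Aspn. Random draws brought every spot down to 1000 UMIs, leaving 131 bone spots in each section, after 15 shallower ones were dropped from Loaded. Bgn was then seen in 61.1% of Control bone spots (52.2 to 69.5, exact binomial) and 51.1% of Loaded ones (42.3 to 60.0), and Dcn in 60.3% (51.4 to 68.7) and 41.2% (32.7 to 50.2). Prelp was seen in 35.1% (27.0 to 43.9) and 19.8% (13.4 to 27.7), and Aspn in 9.92% (5.39 to 16.4) and 3.82% (1.25 to 8.68). At 1000 UMIs the intervals separated only for Dcn. Thinning to 500 UMIs kept all 146 Loaded bone spots. There the intervals separated for Prelp (12.1 to 26.0 in Control and 2.86 to 11.4 in Loaded) and overlapped for Dcn (29.8 to 47.1 and 17.9 to 32.5). At 500 UMIs Ogn (6.11% in Control, 9.59% in Loaded) and Omd (0.763% and 1.37%) were seen more often in Loaded, with overlapping intervals. Before thinning, Bgn was seen in 90.1% and 73.3% of bone spots, with median depths of 3478 and 2621 UMIs. In the remaining spots Bgn was seen in 21.1% and 21.2% of thinned spots, and Aspn in 1.66% and 2.48%.

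The spots with the most counts of each gene were placed differently in the 2 sections. Of the 20 Control spots with the most Bgn, 10 were bone and 10 rim, and they held 15.4% of its UMIs. Of the 20 Loaded spots, 1 was bone, 10 were rim and 9 were elsewhere. For Prelp the 20 Control spots were 5 bone, 5 rim and 10 remaining, with tendon genes at 1.21% of their UMIs, and the 20 Loaded spots were 6 rim and 14 remaining. For Aspn, 16 of the 20 were bone or rim in Control and 4 of the 20 in Loaded. The ranks used raw UMIs, not scaled for depth. The 20 Loaded Aspn spots held 45 UMIs, and no Loaded bone or rim spot had more than 2, so ties at low counts decided part of that set.

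The neighborhoods of the SLRPs were described by ranking all spots of a section on 13 marker lists and comparing the highest 10% with the rest. Tendon-rich spots gave the highest ratio for Prelp, Aspn and Ogn in both sections. Prelp was 2.84 higher on the log2 scale in tendon-rich Control spots and 1.65 higher in Loaded, and those spots held 39.7% and 36.9% of its UMIs. Aspn had 2.30 and 1.27, and Ogn 1.55 and 0.96. For Aspn and Ogn the tendon interval overlapped that of the next list in both sections, and for Prelp it did not. In Loaded, Ogn had 0.62 to 1.29 in tendon-rich and 0.58 to 1.27 in fibroblast-rich spots. In Control, Aspn had 1.92 to 2.67 in tendon-rich and 1.42 to 2.23 in macrophage-rich spots. Prelp was thus higher in the tendon-rich spots of both sections, although most of its UMIs lay in other spots. Most UMIs of the tendon list were Thbs4 and Comp, and Comp is not particular to tendon. Beyond 1000 µm in Control, Comp was 12.7 in chondrocyte-rich spots and 3.34 in the others.

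Dcn had its highest ratio among the 13 lists with the fibroblast list (Pdgfra, Pi16, Dpt, Cd34, Clec3b, Col14a1, Thy1 and Postn) in both sections. Its log2 ratios there were 1.58 (1.46 to 1.69) in Control and 1.24 (1.10 to 1.37) in Loaded. Tendon-rich spots came next, with 1.45 (1.32 to 1.58) and 0.84 (0.70 to 0.98), so the intervals of the 2 lists overlapped in Control. In osteoblast-rich spots Dcn had only 0.40 and 0.09. Lum was highest in osteoblast-rich spots in both sections (2.06 and 1.26), with overlapping intervals in tendon-rich spots (1.83 and 1.10). Bgn had 1.57 and 1.22 in osteoblast-rich spots, 1.89 and 1.04 in tendon-rich spots and 1.78 and 0.79 in fibroblast-rich spots. The neighbors Dcn and Lum, side by side on chromosome 10, therefore differed most in the osteoblast-rich spots. Most UMIs of the osteoblast list were Col1a1 and Col1a2, so osteoblast-rich spots were largely those high in type I collagen transcripts. Across all Control and Loaded spots, Lum had a Pearson r of 0.31 and 0.27 with Col1a1, and of 0.02 and 0.09 with Bglap. For Bgn these values were 0.43 and 0.38 with Col1a1, and 0.03 and 0.16 with Bglap.

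Where osteoblast-rich spots lay was not the same in the 2 sections. In Control 5.26% of them were bone spots and 86.8% were remaining spots, while in Loaded 64.3% were bone spots. Prelp had log2 ratios of 1.16 in Control and 0.08 in Loaded osteoblast-rich spots, and Aspn 1.69 and 0.37. The muscle list gave the lowest ratio of all lists for Bgn, Dcn, Ogn and Aspn in both sections, with Bgn at -2.70 in both sections, Dcn at -1.36 and -1.49, and Aspn at -2.04 and -3.76. It was also the lowest for Lum and Prelp in Control, while in Loaded these were lowest in granulocyte-rich spots (-1.82 and -1.93). The 6 members other than Omd had ratios below 0 in the granulocyte-rich spots of both sections, with Aspn intervals (-1.41 to 0.56 and -1.48 to 0.53) that included 0. Omd was at 1.90 (0.50 to 3.08) in the granulocyte-rich Control spots, on 7 UMIs.

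**Figure D5:**
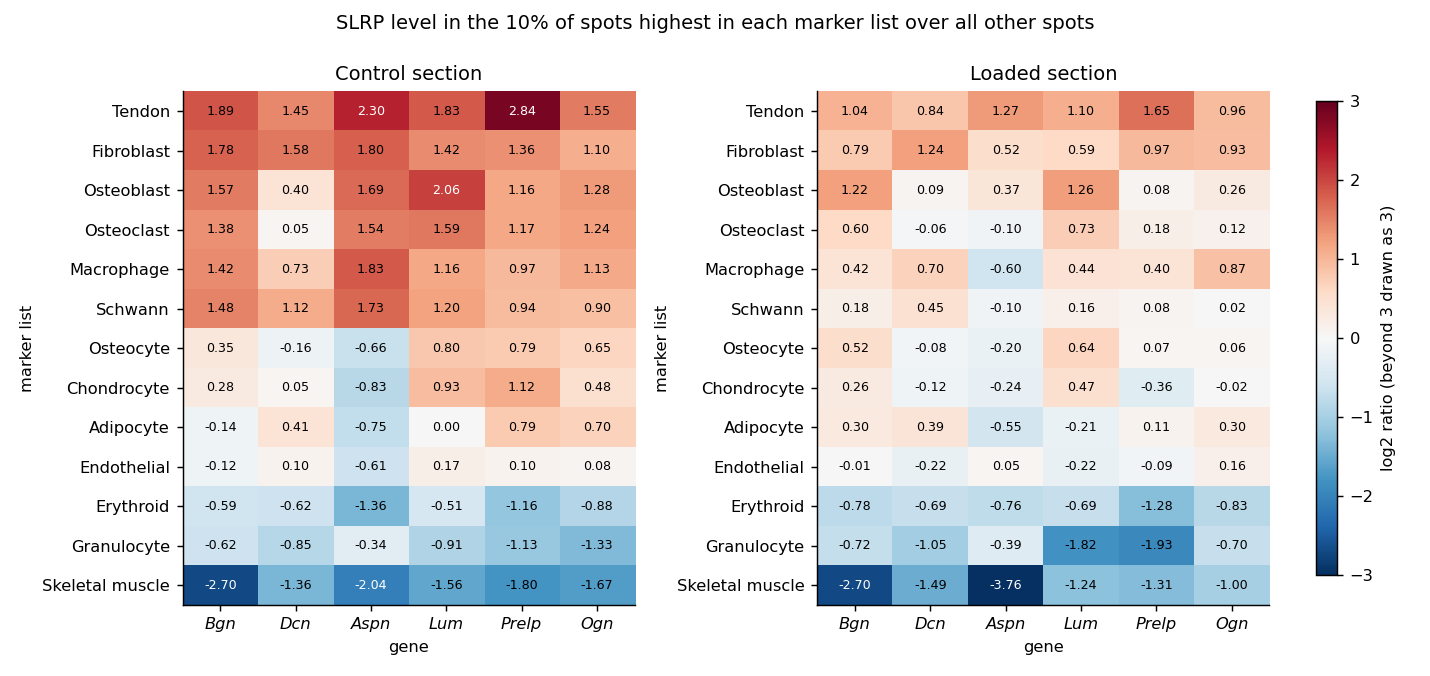
Log2 ratio of each SLRP (columns) in the 10% of spots highest for a marker list (rows) over all other spots, in the Control (left) and Loaded (right) sections. Red is higher and blue lower, from -3 to 3, and tendon-rich spots have 2.84 and 1.65 for Prelp while the muscle-richest spots have -2.70 and -2.70 for Bgn.

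Over all spots the members varied together only weakly. The median Pearson r of the 21 pairs on log2(normalized count + 1) was 0.17 over 1898 Control spots and 0.08 over 1431 Loaded spots. Within bone it was 0.20 over 131 Control spots, with Bgn and Prelp highest at 0.49, and 0.05 over 146 Loaded spots, with Dcn and Prelp highest at 0.32. Spots share a library and differ in depth and muscle share, so these values are descriptions only.

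Among the 1549 genes with at least 500 UMIs in each section, the genes most like Bgn across spots, by the lower of the 2 sections' r, were Sparc (0.41), Col1a1 (0.38) and Col3a1 (0.38). Sparc encodes osteonectin, a collagen-binding matrix protein. Dcn was most like Col3a1 (0.35), Mgp (0.33) and Gsn (0.31), and Lum like Col3a1 (0.32), Mgp (0.28) and Col1a1 (0.27). Prelp was most like Fmod (0.30, and 0.44 in Control), the gene of fibromodulin and its near neighbor on chromosome 1, followed by Mgp (0.27) and Thbs4 (0.27). Aspn (Fn1 0.17, Comp 0.16, Mgp 0.13) and Ogn (Col3a1 0.17, Col6a2 0.17, Fn1 0.16) had weaker matches, and for Omd no gene exceeded 0.07.

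Other SLRP genes were read from a list of 11, of which 6 had enough UMIs in bone (at least 10 over both sections). Chad and Ecm2 were more than 2-fold lower in Loaded bone, where 8.11% of all genes were. None was higher, and the median log2 ratio was -0.48. Chad, encoding chondroadherin of cartilage and tendon, had 144 UMIs in Control and 17 in Loaded (log2 -2.66, -3.47 to -1.93). Ecm2, the gene before Aspn on chromosome 13, had 30 and 4 (log2 -2.48, -4.45 to -0.98). Fmod had 279 and 157 UMIs (log2 -0.40, -0.69 to -0.12), so over all bone spots the Prelp neighbor differed less between the sections than Prelp did. The Prelp ratio was nearer to 0 without Control block A2. Ratios of the genes in this and the following lists were not recomputed without that block.

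The collagen genes, whose fibrils SLRPs bind, had mixed ratios. Of 9 collagen genes, Col1a1 and Col1a2, the chains of type I collagen, were more than 2-fold higher in Loaded bone and none was lower, with a median of 0.30. Col1a2 had 6526 UMIs in Control and 16387 in Loaded bone (log2 1.76, 1.71 to 1.80) and Col1a1 4152 and 8503 (log2 1.46, 1.41 to 1.52). Col3a1, the type III chain of fibrous and early repair tissue, had a log2 ratio of -0.36 (-0.46 to -0.26), and Col6a2 -0.49 (-0.75 to -0.23). In both sections 7 of the 9 were more than 2-fold higher in bone than in the remaining spots, with medians of 1.35 in Control and 1.49 in Loaded. Of all genes, 12.7% were in Control and 9.84% in Loaded.

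The enzymes that build the sugar chains were counted at low levels. Of 15 chondroitin and dermatan sulfate enzymes with enough UMIs, Chsy1, Chst3 and Dsel were more than 2-fold higher in Loaded bone, where 13.2% of all genes were, and Chpf was lower, with a median of 0.51. Chsy1, a chondroitin synthase, had 11 UMIs in Control and 25 in Loaded (log2 1.61, 0.54 to 2.78), and Chpf, the chondroitin polymerizing factor, had 64 and 23 (log2 -1.05, -1.80 to -0.34). Of 6 enzymes that make the linker to the core protein, Xylt1 was higher (17 against 10 UMIs, interval -0.02 to 2.48) and none was lower, and of 5 keratan sulfate enzymes B4galt4 was higher (10 against 6 UMIs) and none was lower. Most of these counts were small, and their intervals were wide.

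Among 14 other proteoglycans none was 2-fold higher in Loaded bone and Acan (7 against 23 UMIs) and Gpc4 (4 against 17) were lower, with a median of -0.20. Of 11 growth factor and receptor genes linked to SLRPs, Ccn4 was higher (25 against 3 UMIs, log2 3.49, 1.77 to 5.86). Tgfb3, a TGF-beta ligand, was lower (59 against 183 UMIs, log2 -1.21, -1.65 to -0.78), as was the endocytic receptor gene Lrp1 (6 against 47 UMIs, log2 -2.54, -4.06 to -1.31), and the median of the list was -0.16. Of 8 proteases that process SLRPs or procollagen, Mmp3 was higher (16 against 7 UMIs) and none was lower, with a median of -0.14, and Mmp2 had a log2 ratio of -0.83 (-1.08 to -0.58). Of all genes, 13.2% were more than 2-fold higher in Loaded bone and 8.11% lower. The lists held few genes each, and no list was tested as a set.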

How the data were processed

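Visium slides for formalin-fixed tissue (mouse probe set version 1.0) were used on 5 µm decalcified longitudinal sections, 1 per condition. The authors mapped probe reads with Space Ranger 2.0.0 (per the file headers) to mm10 and deposited raw UMI counts per gene and spot, with no normalization. Their own normalization and spot-level tests (R 4.3.1 and Seurat per the labels) were not used here. No columns of per-sample values were left unmapped. Bone spots came from the list of bone barcodes in the study's supplement.

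Spots with under 500 UMIs or under 250 genes were left out, as in the study. Size factors were computed over the spots of both sections together (scran 1.30.0 in R 4.3.3), UMIs were summed per region, and a level is the sum divided by the sum of size factors. Intervals are exact Poisson for levels, exact conditional binomial for ratios and exact binomial for shares, all at 95%, and cover counting error only. With 1 section per condition no test was run, and a gene was called at 2-fold or more, provided that both regions together held at least 10 UMIs. Before the ratio was taken, a region without any UMI of a gene was given 3 UMIs. In a region much smaller than the other, such a gene can be called higher although it was not counted there. The shares of all genes called higher can therefore include such genes, and their number is not given here. Every member had UMIs in each bone, rim and remaining region, so the main ratios of members did not use this step. Depth was 557259 UMIs in Control bone and 409020 in Loaded bone. Other settings tried were scaling by library totals with and without 22 muscle genes or by TMM factors (edgeR 4.0.16), no spot filter, equal spot weights, other thresholds and rim widths, muscle-poor spots and leaving out blocks. The ratio, its interval and the 2-fold call for Loaded over Control in bone were also run on simulated region sums. These were drawn as Poisson counts with known folds. That run did not cover single spots, size factors, blocks, thinning, marker ranks or spread between animals. The shaft axis was taken after centring each side, a choice made after the spot positions were seen.

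The 7 members, the gene lists and the marker lists were chosen with earlier results of these data known. Named genes are the members, the 3 genes most like each, and list genes as examples. In the lists, Wisp1 was found under the symbol Ccn4, and 1 of 7 erythroid genes was not found by symbol. RefSeq promoter entries for Dcn and Lum were not used here.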

Additional observations from a re-analysis of the deposited data

Results flagged for a closer look

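In 4 genes the Loaded section stood below the Control section near bone and above it in the remaining tissue, with the counting intervals of both log2 ratios of Loaded over Control lying on opposite sides of 0. In bone against remaining spots the ratios were -0.69 and 0.35 for Bgn, -0.81 and 0.29 for Dcn, and -1.89 and 0.63 for Aspn. In rim against remaining spots they were -0.80 and 0.35 for Bgn, -0.36 and 0.29 for Dcn, -0.31 and 0.41 for Lum, and -1.48 and 0.63 for Aspn. Without Control block A2 the bone ratios were 0.17 for Bgn, -0.63 for Dcn and -0.52 for Aspn, and their intervals are not given here. Without the Control rim spots nearest to it the rim ratios were -0.26 (-0.45 to -0.08) for Bgn and -0.08 (-0.27 to 0.10) for Dcn. They were 0.24 for Lum and -0.69 (-1.39 to 0.00) for Aspn. The opposite directions of Bgn in bone and of Lum in the rim thus rested on that stretch. In the rim, only the Bgn interval then stayed below 0. The difference between regions was not tested, since each condition had 1 section. Among remaining spots with a muscle share below 10% the ratios were -0.42 for Bgn, -0.08 for Dcn and -0.06 for Lum, so the opposite directions of these 3 genes were seen only with the muscle-rich spots included. Aspn stayed above 0 in the remaining spots under all 8 alternatives tried, between 0.26 and 1.02.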

How the results depend on the processing

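Of 679 ratios of single members recomputed under an alternative, 515 stayed within their counting interval, 163 moved outside it and 1 changed sign after a 2-fold call, Prelp in bone over remaining spots of Control, from 1.09 to -0.08 without Control block A2. Of 140 counts of members past 2-fold, 111 stayed within 1.5 times the reported count. Leaving out blocks gave 0 to 5 members for Loaded over Control in bone (reported 3) and 3 to 6 for bone over remaining in Control (reported 6). With blocks cut along an axis not centred on each side, chosen after seeing the data, the ranges were 0 to 5 and 2 to 7. The count of 7 took in every member, the scarce Omd included. Over these leave-outs between 8.17% and 10.3% of genes passed 2-fold lower in the first comparison, and between 13.3% and 19.9% passed 2-fold higher in the second.

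At a 1.5-fold threshold, 5 members passed for Loaded over Control in bone, 2 in the remaining spots, 2 for bone over remaining in Loaded, 6 for rim over remaining in Control and 3 in Loaded. At that threshold 17.6% of genes were lower for Loaded over Control in bone (8.11% at 2-fold), and 21.4% higher for rim over remaining in Control (9.57%). For Loaded over Control in the remaining spots 1 member passed each way, where 18.6% of genes were higher and 14.8% lower. For bone over remaining in Loaded 24.6% of genes were higher. For rim over remaining in Loaded 2 members were higher and 1 lower (Omd, on 2 UMIs in the rim), where 15% and 15.5% of genes were. With library totals, filtered or with no spot filter, 1 member passed for Loaded over Control in the remaining spots (reported 0), 2 for bone over remaining in Loaded (reported 1) and 6 for rim over remaining in Control (reported 3), the last 5 without the muscle genes. The shares of genes higher were then 17.5%, 17.6%, 22.8% and 14.5%. With equal spot weights the first of these was 1, in the lower direction (8.67% of genes), and the second 2 (9.47% of genes higher). With a rim of 350 µm, 1 member passed for Loaded over Control in the rim (reported 3, with 5.89% of genes lower). For rim over remaining in Loaded 0 passed (reported 1, with 3.77% of genes lower). With muscle-poor bone spots, 5 passed for Loaded over Control in bone, 2 for bone over remaining in Loaded and 6 for bone over rim in Control (reported 0). There 13.9% of genes were lower, 30.4% higher and 16.8% higher. The 2 in Loaded included Omd only because a sum of 0 was set to 3 UMIs. Omd had 0 UMIs in those bone spots, so its call is not a higher level. The 6 in Control included Omd on 2 and 8 UMIs. With muscle-poor remaining spots, 1 passed lower for Loaded over Control there (8.63% of genes) and 2 higher for bone over remaining in Control (8.8% of genes). Without tendon-rich spots, an alternative added after seeing the data, 2 passed for bone over remaining in Loaded, where 9.85% of genes did. Without the Control rim spots nearest block A2, also added then, 0 passed for Loaded over Control in the rim (reported 3, with 7.16% of genes lower). The causes were not tested.

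Scaling moved the median log2 ratio of all genes. Library totals took it from 0.04 to 0.42 for Loaded over Control in the remaining spots, from -0.06 to 0.56 for bone over remaining in Control and from 0.09 to 0.35 in Loaded, from 0.03 to 0.49 for rim over remaining in Control and to 0.27 in Loaded, and from 0.00 to 0.17 for Loaded over Control in the rim. TMM factors took it from 0.12 to -0.04 for Loaded over Control in bone. The member median was -0.98 in that last case. No paired analysis was possible because each condition had 1 section. Depth limited Omd, with 47 UMIs in the Control section and 37 in the Loaded section.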

Other observations

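Beyond 1000 µm from bone, the tendon-rich spots held further SLRP transcripts outside the member list. Chad, encoding chondroadherin, was 5.62 (5.15 to 6.13, normalized count with exact Poisson 95% interval) in the 143 tendon-rich Control spots and 0.415 (0.369 to 0.464) in the other 833. In Loaded it was 0.523 (0.342 to 0.767) in 39 tendon-rich spots and 0.0985 (0.0693 to 0.136) in the other 417. Fmod, encoding fibromodulin, was 4.00 and 0.555 in Control and 2.90 and 0.306 in Loaded. Prelp in the Loaded spots was 1.63 (1.29 to 2.03) and 0.357 (0.299 to 0.422).

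Chondrocyte-rich spots of Control all lay among the remaining spots, 188 of them beyond 1000 µm. There Chad was 4.55 (4.03 to 5.12), Prelp 2.24 (1.88 to 2.65) and Bgn 1.78 (1.46 to 2.15), against 0.707, 1.23 and 0.757 in the other far spots, while Aspn was 0.0824 (0.0267 to 0.192) and 0.0719 (0.0540 to 0.0939).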
